A study of Mus musculus with 4 samples.

Results

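Agrp neurons of the mouse hypothalamus at postnatal day 7 (P7) were examined as single cells. They were selected on the measured counts of 2 genes, as P7 cells with at least 10 unique molecular identifiers (UMIs, each a captured RNA molecule) of Agrp and at least 2 of Stmn2, a tubulin-binding protein of neurons. The rule held for 132 of 8917 P7 cells and of 43261 cells in the whole series. The series has 1 sample at each of 4 ages, titled E11, E14, P0 and P7; the age labels give E11.5, E14.5, P0 and P7.5. All 4 were hypothalami of C57BL/6J mice that carried Rax-CreERT2, a Cre recombinase under control of Rax that tamoxifen activates, and Ai14, a tdTomato reporter that recombination switches on. Tamoxifen was given once, at E9 by the design text and at E9.5 by the protocol, and living cells with tdTomato fluorescence were sorted for 10x Genomics 3-prime profiling. Every group below therefore comes from cells of the labelled Rax lineage, and the number of animals behind a sample is not given in the sources used here.

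Agrp neurons lie in the arcuate nucleus and drive feeding. They release agouti-related peptide, which blocks melanocortin receptors, together with neuropeptide Y and the inhibitory transmitter GABA, and the hormones leptin, insulin and ghrelin act on them. Their neighbours, the Pomc neurons, make the melanocortin peptide that Agrp opposes, and both kinds arise from overlapping pools of progenitors. In the first postnatal weeks of the mouse, Agrp axons are still growing to their targets and feeding is not yet under full control of these cells.

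The ages had no replicates. No test between groups was possible, and no p-value was computed. Levels are sums of UMIs over the cells of a group as CPM (counts scaled to a total of 1000000), with exact Poisson 95% intervals, and shares of cells have exact Clopper-Pearson 95% intervals. For a share of 0, the limit given is 3 cells of the total. Both cover counting error only and say nothing of the spread between animals. Log2 differences have 5 CPM added to each side, which understates the difference of low genes. A fold against a group with 0 UMIs takes 3 UMIs over that group as its floor and leaves out counting error in the other group. A gene was compared if at least 10% of cells of either group had a UMI of it, and a difference of at least 2-fold is counted below. Agrp and Stmn2 chose the cells, so their own levels describe the choice.

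The Agrp neurons were compared with 2659 other P7 neurons, with the 1436 of these that had GABA genes, and with 90 Pomc neurons (at least 10 UMIs of Pomc and 2 of Stmn2). GABA genes meant at least 3 UMIs over Gad1, Gad2 and Slc32a1, and fewer of Slc17a6 than of those. A further 1590 P7 cells without Stmn2 UMIs but with oligodendrocyte genes served to read free RNA in the droplets. Median UMIs per cell were 28757 in the Agrp neurons (range 5069 to 44198), 19300 in other neurons, 18054.5 in other GABA neurons, 27959 in Pomc neurons and 7940.5 in the oligodendrocyte-gene cells, against 11174 over all P7 cells. The Agrp neurons together held 3726270 UMIs, so that 1 UMI was worth 0.268 CPM, and they had a median of 6547.5 genes per cell. All 132 had a tdTomato UMI. Of their cell barcodes, 1 was also present in another library, as were 72 barcodes over all P7 cells. Scrublet, a doublet caller applied within each run number of the cell names, marked 237 of 8917 P7 cells (2.66%), 2 of them Agrp neurons.

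The label held against the markers that the rule did not use. Npy, which encodes neuropeptide Y, ran from 103 CPM in the lowest Agrp neuron through a median of 15081 to 32758 in the highest, which is 2, 417.5 and 1265 UMIs. Otp, a homeodomain transcription factor of arcuate and paraventricular neurons, ran from 74.7 through 558 to 1244 CPM. All 132 cells had UMIs of both, 131 had at least 10 of Npy and 126 had at least 3 of Otp. The medians in other GABA neurons were 24.3 CPM for Npy and 0 for Otp. Agrp itself ran from 314 through 4208 to 13762 CPM, or 10, 112.5 and 418 UMIs, as the rule sets.

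Free RNA was read from cells that should make neither gene. At 2000 UMIs drawn from each cell, Npy was seen in 97.7% of Agrp neurons, 11.6% of other neurons and 10.1% of the oligodendrocyte-gene cells, so the share in other neurons lay close to that in cells that should lack it. The shares for Otp were 59.9%, 7.0% and 0.692%. For Agrp they were 94.7%, 2.67% and 2.96%. A single Agrp UMI at this depth was thus as frequent in other neurons as in the oligodendrocyte-gene cells. These shares are at equal UMIs and not per droplet, and the oligodendrocyte-gene cells had lower depth.

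**Figure D1:**
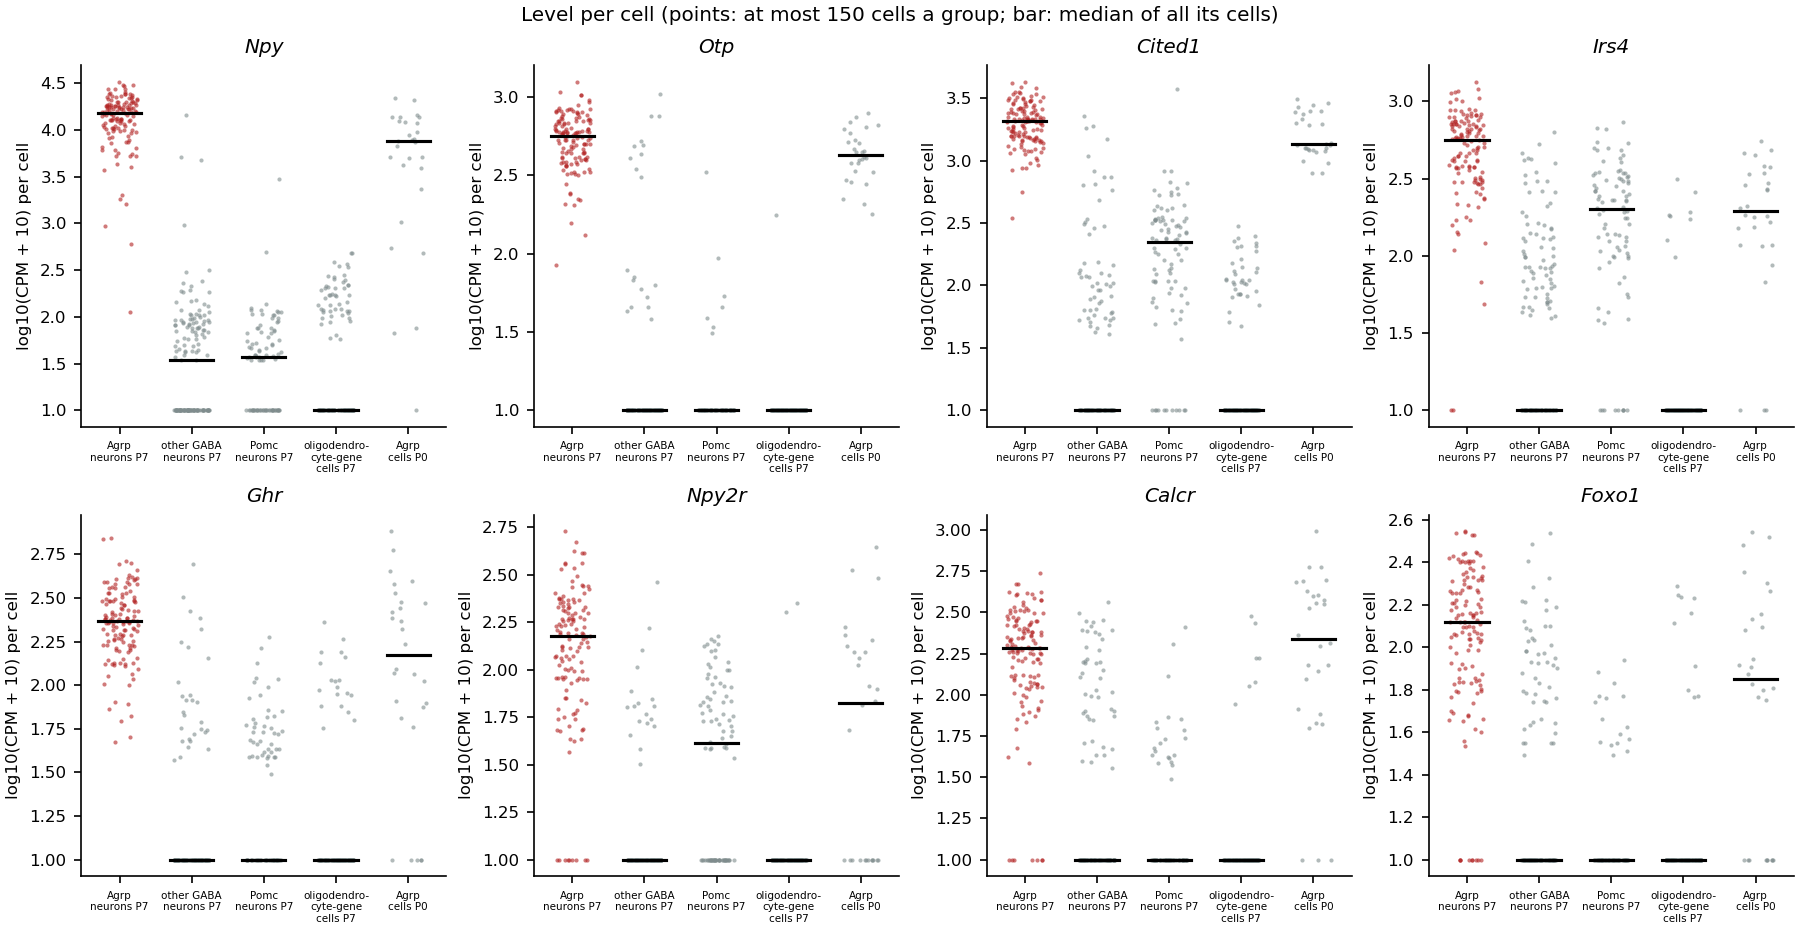
Levels of 8 genes per cell, as log10 of CPM with 10 added, in Agrp neurons, other GABA neurons, Pomc neurons and oligodendrocyte-gene cells at P7 and in Agrp cells at P0; points are cells (at most 150 drawn per group) and bars are medians over all cells of a group. Agrp neurons have median levels of 15081 CPM for Npy and 558 CPM for Otp, against 24.3 and 0 CPM in other GABA neurons.

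Agrp neurons made up 129 of the 2788 P7 cells called neurons, 4.63% (3.88% to 5.47%). Neurons were cells with at least 2 Stmn2 UMIs and more UMIs of a neuronal than of a glial gene panel. The other 3 Agrp neurons had more glial panel UMIs, with 5529 CPM of Npy and 128 CPM of Otp. Without the panel condition on either side the share was 3.05%. A further 2 P7 cells had at least 10 Agrp UMIs but fewer than 2 of Stmn2, and held 4074 CPM of Npy. The cells were sorted on the Rax lineage, so this is a share of the labelled neurons in the deposited cells and not of the hypothalamus.

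The same rule found Agrp cells from P0 on, and almost none before. It held for 0 of 2782 neurons at E11, which allows a share of up to 0.108%. It held for 1 of 14838 at E14, or 0.00674% (0.000171% to 0.0375%), and for 28 of 7795 at P0, or 0.359% (0.239% to 0.519%). The names of the P0 cells carry the numbers 1 and 2, called runs here, whose meaning the labels do not state, and the shares were 0.410% of 1462 neurons and 0.347% of 6333. With every neuron reduced to 2000 UMIs and at least 3 Agrp UMIs asked for, P7 neurons passed in 3.98% (3.29% to 4.77%), P0 neurons in 0.359%, E14 neurons in 0.0202% and E11 neurons in 0%. By this second measure 0 of 1590 oligodendrocyte-gene cells passed, which allows a share of up to 0.189%. The share at P7 was the highest of the 4 samples by either measure, with no replicate at any age.

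Cells on both sides of the threshold of 10 UMIs carried Npy, and most carried Otp. The 3 neurons with 7 to 9 Agrp UMIs had 8348 CPM of Npy and 352 CPM of Otp, with an Otp UMI in 66.7% of them, and the 4 with 10 to 12 had 12854 and 712. Neurons without an Agrp UMI, 2196 in all, had 107 CPM of Npy, 63.7 of Otp and 86.1 of Cited1, a transcriptional co-regulator. The 398 with 1 Agrp UMI had somewhat more Npy, 142 CPM (134 to 149), and Otp, 91.2 CPM (85.3 to 97.5), and nearly the same Cited1, 84.9 CPM. The 58 with 2 to 4 UMIs were mixed, with 753, 92.6 and 120 CPM. From 5 UMIs on all 3 genes stood higher. The 7 neurons with 5 to 9 UMIs had 5085 CPM of Npy (4764 to 5423), 618 of Otp (509 to 743) and 1772 of Cited1.

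Above the threshold, Npy went on upward with Agrp while Otp and Cited1 did not. Npy stood at 9335 CPM in the 13 neurons with 10 to 19 Agrp UMIs, 14103 in the 28 with 50 to 99 and 19994 in the 26 with 200 or more. In the same bins Otp was 687, 574 and 502 CPM and Cited1 was 2479, 2062 and 1910 CPM. A cell's depth adds to its Agrp UMIs, and the median depth of these bins was 30329, 24593 and 34632 UMIs.

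**Figure D2:**
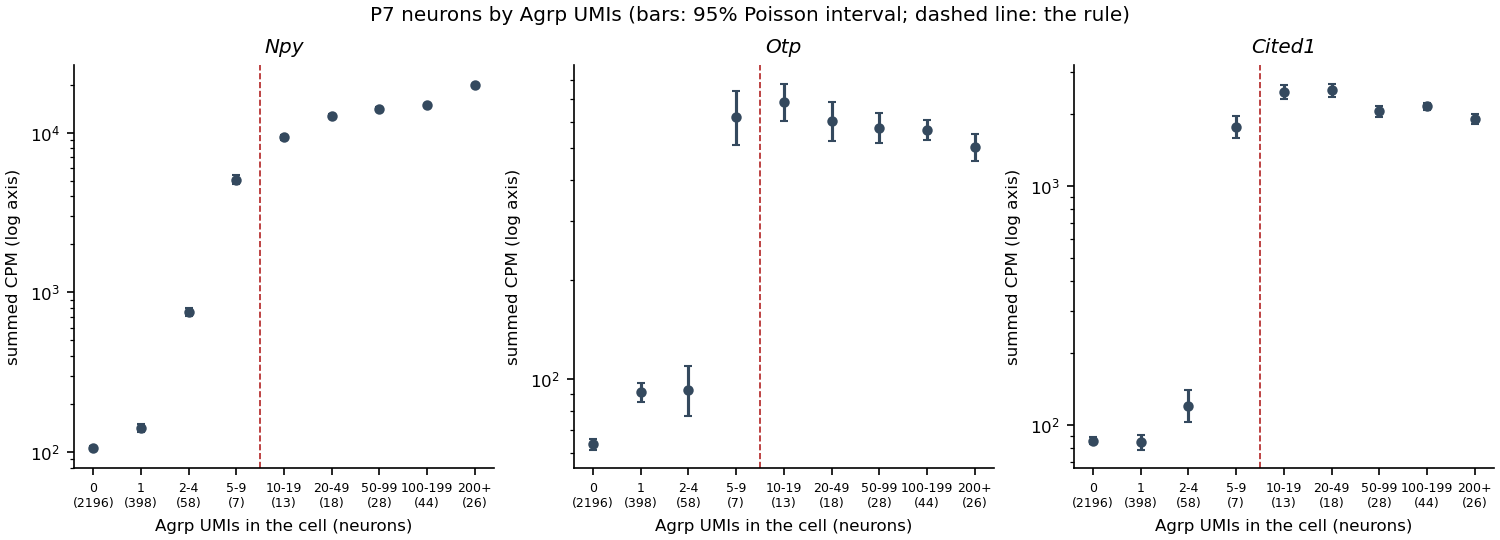
Npy, Otp and Cited1 in P7 neurons by the number of Agrp UMIs in a cell, in CPM of the summed cells of a bin on log axes; bars are exact Poisson 95% intervals and the dashed line is the rule of 10 UMIs. Npy is 107 CPM without Agrp UMIs and 19994 CPM at 200 or more, while Otp lies between 502 and 687 CPM in every bin from 5 UMIs on.

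High Npy with fewer than 10 Agrp UMIs was also found, in few cells. Of 132 P7 neurons with at least 100 Npy UMIs, 120 had at least 10 of Agrp and 12 did not. These 12 had 7859 CPM of Npy and 685 CPM of Otp, 11 of them with an Otp UMI. Their Sst, the inhibitory peptide somatostatin, was uneven: 5 of the 12 had at least 10 Sst UMIs, and the cells ran from 0 through a median of 0.5 to 1548 UMIs. Of the 120 with at least 10 Agrp UMIs, 1 had at least 10 Sst UMIs. At the lower limit of 10 Npy UMIs, 225 neurons passed, 128 with at least 10 of Agrp, and 65 of the other 97 had no Otp UMI.

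Against all other P7 neurons, Agrp neurons carried Npy, Cited1 and a set of receptors at high levels, and Agrp by the rule. Most of the listed peptides and transcription factors compared stood lower. A gene could be compared through the other neurons alone, a pool of many types, so the filter partly set that direction. Likewise a gene could be compared through the Agrp neurons alone, as Acvr1c was, so the filter bears on higher genes too. Of 11756 genes compared, 208 (1.77%) were at least 2-fold higher and 503 (4.28%) at least 2-fold lower. The median log2 difference over all compared genes was -0.01. The gene lists below were read against these shares.

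Of 20 neuropeptide genes compared, 2 were higher, Agrp and Npy, and 16 lower, with a median log2 difference of -2.58. Agrp chose the cells, and a peptide could be compared through the other neurons alone, so rule and filter bear on this count. Npy stood at 15192 CPM (15067 to 15317) in Agrp neurons and 147 in other neurons, a log2 difference of 6.65. Agrp, by the rule, was at 4381 CPM (4314 to 4449) and 10.7, where the oligodendrocyte-gene cells had 12. Both peptides were thus found in the same cells, and the highest level of Npy in the other P7 groups was 191 CPM, in other GABA neurons.

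The lower peptides were those of other hypothalamic neurons. Ghrh, growth hormone-releasing hormone, was at 14.22 CPM against 699 in other neurons, a log2 difference of -5.19. Avp, vasopressin, was at 89.1 (79.8 to 99.2) against 2586, and Oxt, oxytocin, at 12.3 against 472, both at -4.78. The oligodendrocyte-gene cells, which should make none of them, held 18.5, 110 and 15.5 CPM. In CPM the Agrp neurons thus held no more of these peptides, while 89.4% of them had an Avp UMI. These groups differ in depth, with medians of 28757 and 7940.5 UMIs, so like CPM means more UMIs per droplet in Agrp neurons. Whether these levels are free RNA was not tested. Cck (cholecystokinin) stood at 15.3 CPM against 385, Gal (galanin) at 11.3 against 237, and Sst at 25.2 against 377. Pomc was at 33.3 CPM against 246, and no Agrp neuron had 10 or more Pomc UMIs. At 2000 UMIs a Pomc UMI was seen in 6.82% of Agrp neurons, 5.49% of other neurons and 2.39% of oligodendrocyte-gene cells. Cartpt, the anorexigenic peptide CART, was at 52.3 CPM against 126, with a UMI in 34.1% of Agrp neurons. Its log2 difference was -0.81 against P7 cells taken by Stmn2 and Agrp counts alone. These 4200 cells include some with as many or more glial than neuronal panel UMIs, called glia-rich below.

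**Figure D3:**
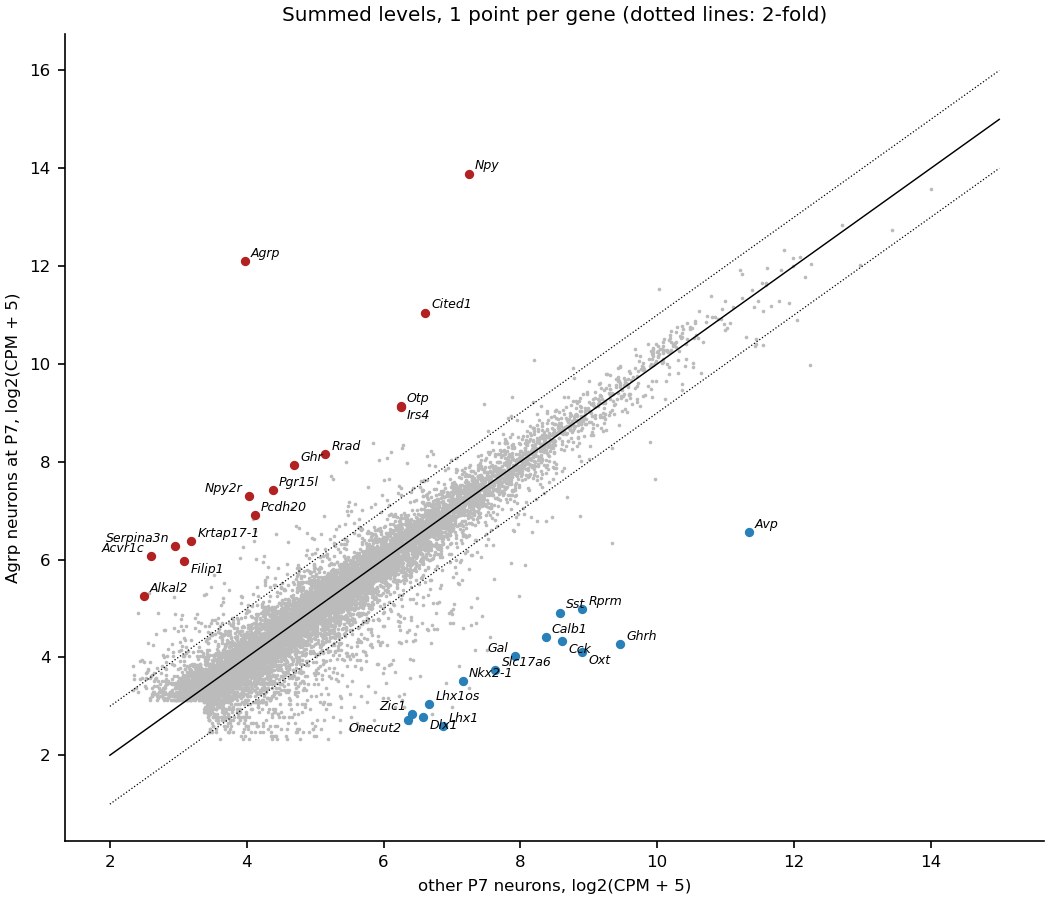
Each gene compared, as log2 of CPM with 5 added, in Agrp neurons (vertical) against other P7 neurons (horizontal); the dotted lines mark 2-fold, and the 15 highest and 15 lowest genes seen in at least 25% of cells of either group are named. Agrp and Npy are farthest above the lines, and Ghrh, Avp and Oxt farthest below.

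Among receptors for metabolic hormones, 6 of 21 were higher, Ghsr, Calcr, Ghr, Nr3c1, Nr3c2 and Acvr1c, and 3 lower, Igf1r, Ramp3 and Esr1, with a median of 0.24. Ghr, the growth hormone receptor, ran from 37.3 through 223 to 689 CPM per cell and was in every Agrp neuron. Its summed level was 239 CPM (224 to 255) against 20.8 in other neurons, a log2 difference of 3.24. No Agrp neuron lacked Ghr, while 22.2% of other neurons had a UMI. Calcr, the receptor of calcitonin and amylin, ran from 0 through 183 to 540 CPM per cell and stood at 194 (180 to 209) against 33.4, a log2 difference of 2.38. Acvr1c, the activin receptor ALK7, was at 62.0 CPM (54.3 to 70.5) against 1.05, a log2 difference of 3.47, and was seen in 56.1% of Agrp neurons and 1.65% of other neurons. It was thus compared through the Agrp neurons alone, so the filter bears on the count and median of this list.

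Ghrelin and leptin receptors were measured at low levels. Ghsr, the ghrelin receptor, was at 24.4 CPM (19.7 to 30.0) in Agrp neurons and 2.71 in other neurons, with a UMI in 34.8% of Agrp neurons and in none of the oligodendrocyte-gene cells. Lepr, the leptin receptor, gave 18 UMIs over all Agrp neurons, 4.83 CPM (2.86 to 7.63), against 0.335 in other neurons and 0 in oligodendrocyte-gene cells. It was seen in 12.9% of Agrp neurons and 0.564% of other neurons. At 2000 UMIs a Lepr UMI was seen in 0% of Agrp neurons, so its share was not measurable at matched depth. Insr, the insulin receptor, was at 23.4 CPM (18.7 to 28.8) against 19, a log2 difference of 0.24. The glucocorticoid receptor Nr3c1 was at 139.6 CPM against 40.1, and the insulin-like growth factor receptor Igf1r at 10.7 against 40.7.

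Among receptors for peptides and transmitters, 5 of 28 were higher, Mc3r, Npy2r, Npy5r, Gabre and Gabrq, and 8 lower, with a median of -0.41. Npy2r, a receptor of neuropeptide Y that acts on the cells releasing it, ran from 0 through 140 to 527 CPM per cell. It stood at 152 CPM (140 to 165) against 11.3 in other neurons, a log2 difference of 3.27, and was seen in 93.2% of Agrp neurons and 11.3% of other neurons. In oligodendrocyte-gene cells, at lower depth, the share was 0.818%. At 2000 UMIs the shares were 25.8%, 2.18% and 0.126%. Npy5r was at 15.6 CPM against 3.58, while Npy1r was at 18.2 against 10.1, short of 2-fold. Mc3r, a melanocortin receptor, was at 18.5 CPM (14.4 to 23.4) against 1.94, whereas Mc4r, the receptor on the targets of Agrp, gave 0 UMIs in Agrp neurons and 1.5 CPM in other neurons. The GABA-A receptor subunit gene Gabre was at 251 CPM against 38.7, and Gabrq, another subunit gene, at 49.6 against 22.3.

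Of the leptin and insulin signalling genes, 6 of 26 were higher, Stat3, Socs2, Cish, Irs2, Irs4 and Foxo1, and none was 2-fold lower, with a median of 0.14. Irs4, an insulin receptor substrate of the hypothalamus, ran from 0 through 549 to 1332 CPM per cell and was in 98.5% of Agrp neurons. It stood at 551 CPM (528 to 576) against 71.1, a log2 difference of 2.87. Foxo1, the transcription factor that insulin signalling holds back, was at 127 CPM (116 to 139) against 20.4, a log2 difference of 2.38. Stat3, the transcription factor downstream of the leptin receptor, was at 98.5 CPM against 36.0, and oligodendrocyte-gene cells had 175. Against P7 cells taken by Stmn2 and Agrp counts alone, glia-rich cells included, the log2 difference of Stat3 was 0.74, short of 2-fold. Against other neurons with at least 10 Stmn2 UMIs it was 1.38. Socs2 and Cish, feedback inhibitors of JAK-STAT signalling, were at 102 against 38.3 and at 21.2 against 5.12. Irs1, Jak2 and Socs3 did not differ 2-fold. None of the 19 nutrient sensing genes was higher and 2 were lower, Ppargc1a and Trpc5.

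Transcription factors mostly stood lower: of 35 compared among 53 listed, 5 were higher and 23 lower. The median was -2.23, or -2.15 with genes at 0 set to 3 UMIs. Factors such as Hmx3, Lhx1 and Sim1, almost absent here, were compared through the other neurons alone. The filter thus partly set this count and median. The higher ones were Otp, Tbx3, Bsx, Nr5a2 and Egr1. The call of Egr1 ended against P7 cells taken by Stmn2 and Agrp counts alone, where its log2 difference was 0.06 in place of 1.62. Those cells, taken without the panel condition, include glia-rich ones. Against other neurons with at least 10 Stmn2 UMIs the difference was 1.74. Otp stood at 559 CPM (535 to 584) against 71.1, a log2 difference of 2.89. Tbx3, a T-box factor of arcuate peptide neurons, was at 131.5 CPM against 39.8, and Bsx, a homeobox factor of Agrp neurons, at 38.4 against 12.7. Nr5a2, a nuclear receptor, was at 38.1 against 6.11. Isl1, a LIM factor of arcuate precursors, was at 223 against 114 and did not reach 2-fold.

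The lower factors included Lhx1 at 1.07 CPM against 112, Dlx1 at 1.88 against 90.5, Onecut2 at 1.61 against 77.0 and Nkx2-1, a factor of the ventral hypothalamus, at 6.44 against 138. Hmx3 gave 0 UMIs in Agrp neurons and 19.1 CPM in other neurons, 23.7-fold lower with 3 UMIs over the group as the floor. Zic1, outside the list, was at 2.15 CPM against 80.7. Sim1 was at 0.537 CPM against 21.2. The other neurons hold many types, each with genes of its own.

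Transmitter genes marked the Agrp neurons as GABA cells. None of 10 was 2-fold higher than in other neurons and 4 were lower, Slc17a6, Th, Ddc and Slc18a2. Slc17a6, the glutamate transporter VGLUT2, was at 8.32 CPM against 194, and 1 Agrp neuron had 3 or more of its UMIs. At 2000 UMIs its share was 0% in Agrp neurons, 20.8% in other neurons and 1.26% in oligodendrocyte-gene cells. Slc32a1, the vesicular GABA transporter, ran from 0 through 169.5 to 508 CPM per cell, and 130 of the 132 cells had a UMI of Slc32a1, Gad1 or Gad2, against 390 of the 1590 oligodendrocyte-gene cells, at lower depth. At 2000 UMIs a Slc32a1 UMI was seen in 28.0% of Agrp neurons, 21.5% of other neurons and 0.629% of oligodendrocyte-gene cells. Gad1 and Gad2, the GABA-making enzymes, were at 241 CPM against 188 and at 210 against 137.

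**Figure D4:**
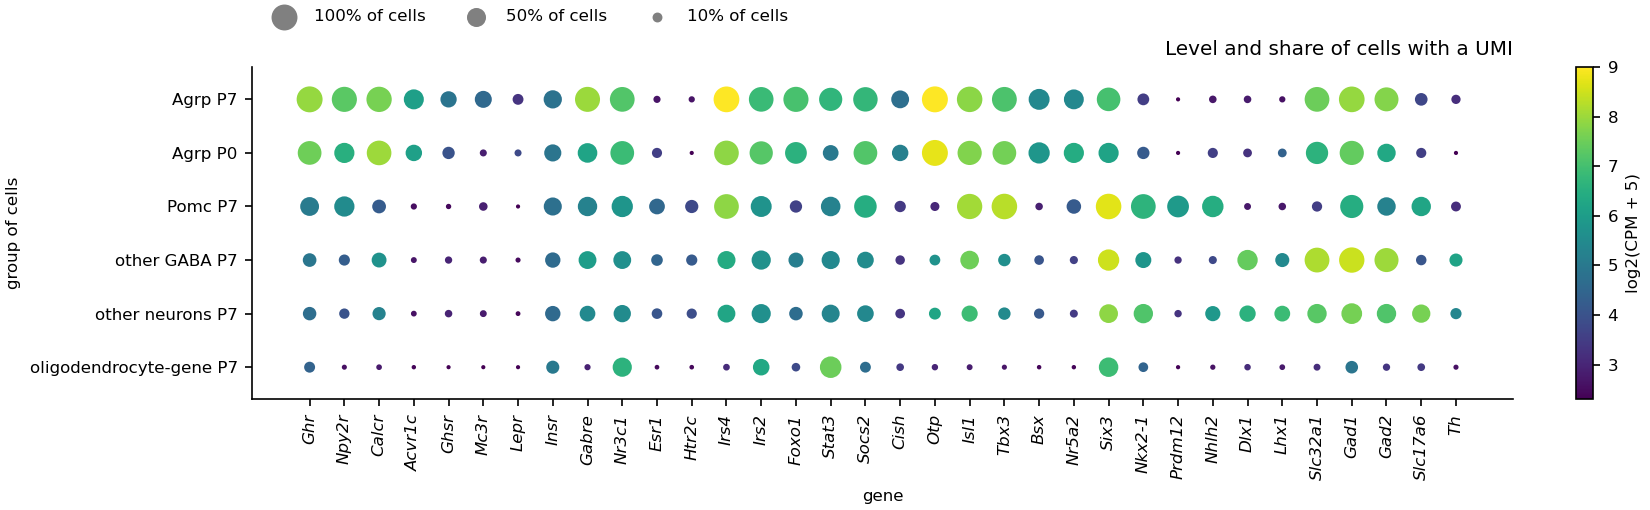
Receptors, signalling genes, transcription factors and transmitter genes in 6 groups of cells; the size of a dot is the percent of cells with a UMI and its colour is log2 of CPM with 5 added. Ghr, Irs4 and Npy2r are in 100%, 98.5% and 93.2% of Agrp neurons, and Slc32a1 is low in Pomc neurons, at 6.40 CPM.

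Outside the lists the gene farthest above other neurons after Agrp and Npy was Cited1. It ran from 336 through 2055 to 4285 CPM per cell and stood at 2115 CPM (2069 to 2162) against 92.5, a log2 difference of 4.44. Cited1 was in every Agrp neuron and in 42.7% of other neurons, where the oligodendrocyte-gene cells held 31.9 CPM. Pgr15l, a G protein-coupled receptor gene, was at 166 CPM against 15.8, Pcdh20, a protocadherin of cell adhesion, at 115 against 12.3, and Filip1, a filamin-binding protein, at 58.0 against 3.51. Alkal2, a ligand of ALK-family receptor kinases, was at 33.3 against 0.646, and gave 0 UMIs in Pomc neurons, where the difference was at least 27.7-fold.

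Some of the leading genes were uneven among the cells. Krtap17-1, a keratin-associated protein gene, was at 78.4 CPM against 4.12, but its median per cell was 0 and 5 cells held 62.0% of its UMIs. Serpina3n, a protease inhibitor, was at 72.7 CPM (64.3 to 81.9) against 2.75, and 5 cells held 31.0%. Rrad, a small GTPase, was at 280 against 30.5, with a median of 111 CPM per cell, and 5 cells held 30.1%. These 3 genes varied widely among Agrp neurons, in contrast to Cited1 and Ghr.

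Of 26 genes taken from descriptions of adult Agrp neurons 22 were compared. Of these, 14 were higher at P7 and 2 lower, Sst and Gpr83, with a median of 1.56. Genes such as Acvr1c were compared through the Agrp neurons alone, so the filter partly set this count and median. The call of Gpr83 ended against P7 cells taken by Stmn2 and Agrp counts alone, glia-rich cells included, at -0.87. Against other neurons with at least 10 Stmn2 UMIs it was -1.16. Gm8773, a gene of this list without a name, ran from 0 through 58.3 to 740 CPM per cell and was at 108 CPM against 12, with a UMI in 63.6% of Agrp neurons. The list was put together with earlier results of these data known.

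Against the other GABA neurons the picture was much the same. Of 11663 genes, 193 (1.65%) were higher and 383 (3.28%) lower. Npy was at 15192 CPM against 191, Otp at 559 against 47.4, Cited1 at 2115 against 127, Ghr at 239 against 25.7 and Npy2r at 152 against 14.4. Of the adult Agrp genes, 13 of 21 were higher and 1 lower, and of the leptin and insulin genes 6 of 26 were higher and none lower. Here too a gene could be compared through the Agrp neurons alone, so the filter bears on these counts. Slc32a1 was at 176 CPM (163 to 190) against 284, a log2 difference of -0.68. The other GABA neurons were chosen by their UMIs of Slc32a1, Gad1 and Gad2 and the Agrp neurons were not, so that choice bears on this difference.

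Lower in Agrp neurons than in other GABA neurons were peptides and factors of those cells. Ghrh was at 14.22 CPM against 1313, Gal at 11.3 against 411 and Sst at 25.2 against 493. Dlx1 was at 1.88 against 166 and Dlx2 at 0.805 against 82.2, the distal-less factors of forebrain GABA neurons. Zic1, the zinc finger factor, was at 2.15 against 128, and Rgs16, a regulator of G protein signalling, at 0.805 against 75.1. Agrp neurons were thus GABA neurons with little Dlx1 or Dlx2 at P7. Of 31 transcription factors 5 were higher and 20 lower, and of 18 neuropeptides 2 and 11. Dlx1 and Dlx2 were compared through the other GABA neurons alone, and the 2 higher peptides were Npy and Agrp, a gene of the rule. Rule and filter thus bear on these counts.

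Against the 90 Pomc neurons, Agrp neurons were higher in GABA genes, Foxo1, Calcr and Ghr, and lower in another set of regulators. Of 12060 genes, 256 (2.12%) were higher and 278 (2.31%) lower. Npy was at 15192 CPM against 49.2, the level of the oligodendrocyte-gene cells, and Otp at 559 against 3.20, where those cells had 2.99. The Pomc neurons had a median depth close to that of the Agrp neurons.

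Of 10 transmitter genes 4 were higher, Slc32a1, Gad1, Gad2 and Slc18a3, and 3 lower, Slc17a6, Ddc and Slc18a2. Slc32a1 was at 176 CPM against 6.40, a log2 difference of 3.99. Gad2 was at 210 against 32.8 and Gad1 at 241 against 82.0, so Pomc neurons kept some Gad1 with hardly any vesicular transporter. Slc17a6 was above 0 in the median Pomc neuron, at 26.4 CPM, and at 0 in the median Agrp neuron.

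Receptor and signalling genes stood in both directions. Of 21 metabolic receptors 7 were higher in Agrp neurons, Ghsr, Calcr, Ghr, Nr3c1, Nr3c2, Acvr1c and Il6st, and 3 lower, among them Prlr and Esr1. Calcr was at 194 CPM against 13.6, a log2 difference of 3.42, and Ghr at 239 against 28.4, a log2 difference of 2.87. Prlr, the prolactin receptor, was at 25.8 against 77.2. Npy2r was at 152 against 40.4 and Npy1r at 18.2 against 48.8, so the neuropeptide Y receptors stood in opposite directions. Foxo1 was at 127 against 7.20, a log2 difference of 3.44, and Irs4 at 551 against 226. Lepr gave 0 UMIs in Pomc neurons, and its level in Agrp neurons was 4.02-fold that of the floor of 3 UMIs. That level rests on 18 UMIs, whose counting error the fold leaves out. Pik3r1, a regulatory subunit of PI3 kinase, was at 83.2 against 185.

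Among transcription factors, Prdm12, which Pomc expression needs, gave 0 UMIs in Agrp neurons and 55.2 CPM in Pomc neurons. That is 68.6-fold lower with 3 UMIs as the floor. Nhlh2, a basic helix-loop-helix factor, was at 1.61 CPM against 82.0 and Nkx2-1 at 6.44 against 94.0. Tbx3 was at 131.5 against 303 and Six3 at 126 against 413, both lower in Agrp neurons, though Tbx3 was higher there than in other neurons. Of 23 factors 4 were higher, Otp, Bsx, Nr5a2 and Egr1, and 7 lower. Pomc, which chose the comparison cells, was at 33.3 CPM against 5014. Other genes far lower in Agrp neurons were Cpne4 (a copine) at 3.49 CPM against 236, Calb1 (calbindin) at 16.4 against 483, Tenm1 (a teneurin) at 3.76 against 158 and Gpr101, an orphan receptor, at 0.805 against 99.6. Arhgap36, an activator of hedgehog signalling, was at 238 against 13.2 and higher in Agrp neurons. None of 18 peptide processing genes differed 2-fold between the 2 kinds.

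Among the Agrp neurons themselves, cells with more Agrp had more Npy and less Sox11. The cells were ordered by Agrp CPM into 3 sets of 44, with 1500, 4146 and 7119 CPM of Agrp and median depths of 26029.5, 28638 and 31320.5 UMIs. Npy was 12152, 14244 and 18720 CPM in them. Otp was 613, 558 and 512, and Cited1 was 2325, 2073 and 1970. Acvr1c was 38.5, 65.5 and 79.4 and Serpina3n 28.2, 57.3 and 126. Slc32a1 was 247, 139 and 147.5, and Sox11, a factor of young neurons, 136, 113 and 72.6. These sets share a library and differ in depth, and the differences are a description of these cells.

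With every cell reduced to 2000 UMIs, Spearman's rho with Agrp across the 132 cells was 0.31 for Npy, 0.30 for Resp18 (a secretory granule protein), 0.30 for Fos and -0.05 for Cited1. Among 298 genes the highest was Rpl39 at 0.41 and the lowest Tubb2b, a tubulin of growing neurons, at -0.43. These values are across cells of 1 library and share its depth.

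Glial RNA was present in some Agrp neurons. The summed oligodendrocyte markers ran from 0 through a median of 117 to 2035 CPM per cell (171 CPM summed, Mog at 0), against 216 CPM in other neurons. The summed astrocyte markers ran from 0 through 159 to 8022, with 310 CPM in Agrp neurons and 265 in other neurons. Tanycyte markers summed to 68.4 CPM against 77.0, ependymal to 112 against 88.2, progenitor to 460 against 472, and blood and vessel markers to 19.3 (Cldn5 at 0) against 15.5. No gene of these lists was 2-fold higher than in other neurons, and Vcan and Hopx were lower. Without the 25 Agrp neurons that had at least 10 UMIs of a glial list, Npy was 15449 CPM, Otp 587 and Cited1 2195, so these levels were as high without them. Apoe was at 655 CPM with those cells and 313 without, and Slc1a3 at 87.8 and 21.4.

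Against the 28 Agrp cells of P0, the P7 Agrp neurons were within 2-fold in Otp, Cited1, Acvr1c and Calcr, and in Agrp, by which both were chosen. They had more Irs4, Resp18, Gabre and Syp, and less Sox11, Sox4 and Dcx. In other neurons Resp18, Gabre and Syp were also at least 2-fold higher at P7, and Sox11, Sox4 and Dcx at least 2-fold lower. Of 11766 genes, 821 (6.98%) were higher and 417 (3.54%) lower. In other neurons, where 11037 genes were compared, the shares from P0 to P7 were 3.43% higher and 1.44% lower. The 2 pairs of shares are not alike in depth, since 1 UMI is worth 2.24 CPM in P0 Agrp cells and 0.0118 CPM in other P0 neurons. With 20 CPM added in place of 5, the counts in Agrp cells were 147 and 44. The P0 cells held 445595 UMIs in all, with a median of 17297.5 per cell. At this lower depth the rule of 10 Agrp UMIs asks for a higher fraction: the lowest Agrp level was 1785 CPM at P0 and 314 at P7. The rule thus bears on the comparison of Agrp between ages and runs, and of Npy, which went with Agrp among the P7 cells. Of the P0 cells 6 came from run 1, with 42315 UMIs together, and 22 from run 2, so that run 1 gives coarse values. Age and library cannot be told apart, since each age is 1 sample, and the labels do not give the sex of the animals.

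Of the 2 marker peptides, Npy differed between the P0 runs. Agrp was at 4381 CPM at P7 and 3705 at P0, and Otp at 559 and 426. Npy was at 15192 at P7 and 7190 (6944 to 7444) at P0, a log2 difference of 1.08. That difference did not hold in run 1, where Npy was at 14250 (13135 to 15435), a log2 difference of 0.09, against 6450 (6204 to 6702) and 1.24 in run 2. Other neurons also had more Npy at P7, by 1.60 on the log2 scale. Agrp differed little between the runs, at 4136 and 3660 CPM.

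Irs4 was at 551 CPM at P7 and 227 (185 to 275) at P0, with 189 in run 1 and 231 in run 2, and its log2 difference of 1.26 stood beside 0.84 in other neurons. Gabre was at 251 and 69.6, with 23.6 in run 1 and 74.4 in run 2. Mc3r was at 18.5 and 2.24, the latter 1 UMI. Stat3 was at 98.5 and 26.9, with 0 UMIs in run 1, where other neurons differed by 0.43 on the log2 scale. Ghr was at 239 and 179.5, Npy2r at 152 and 87.5, Calcr at 194 and 256 and Acvr1c at 62.0 and 62.8, none of them 2-fold apart. Run 1 held 16, 3, 15 and 1 UMIs of these 4 genes, and there Ghr stood higher at P0 than at P7, at 378 CPM against 159 in run 2. Ghr, Npy2r, Calcr and Acvr1c were thus already measured in Agrp cells at birth. Of 20 metabolic receptors 5 were higher at P7 and none lower, beside 4 of 16 higher and 1 lower in other neurons. Of 26 leptin and insulin genes 3 were higher, Stat3, Irs4 and Akt2, and 1 lower, Ptpn2, near the 6.98% and 3.54% of all genes.

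Syp and Thy1 were higher at P7 and Sox11, Sox4 and Dcx lower, in Agrp cells as in other neurons. Syp, synaptophysin of synaptic vesicles, was at 728 CPM at P7 and 240 at P0, a log2 difference of 1.58 against 2.40 in other neurons. Thy1, a surface protein of mature axons, was at 144 and 2.24, the latter 1 UMI, a log2 difference of 4.36 against 3.04. Resp18 was at 2941 and 965, and Gad2 at 210 and 74.1. Sox11 was at 106 and 375, Sox4 at 76.0 and 278, and Dcx, doublecortin of migrating neurons, at 80.8 and 236. By run, the log2 differences of Sox11 were -1.70 and -1.79, of Dcx -1.75 and -1.46, and of Syp 2.57 and 1.51. Sox4 was short of 2-fold in run 1, at -0.86, against -1.88 in run 2. None of 23 transcription factors was 2-fold higher at P7 and 3 were lower, among them Hmx2 and Onecut2, each on at most 4 UMIs at P0, none of them from run 1. Of 33 maturation and axon growth genes 1 was higher and 5 lower.

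Arhgap36 was at 238 CPM at P7 and 15.7 (7 UMIs) at P0, Tuba4a, an alpha-tubulin, at 134 and 13.5, and Vstm2l at 184 and 20.2. Run 1 held 0, 1 and 0 UMIs of them. Lower at P7 was Cdkn1c, an imprinted cell cycle inhibitor, at 14 and 177, with 196 CPM in run 2 and 0 UMIs in run 1, where 1 UMI is worth 23.6 CPM. The difference of Cdkn1c thus rests on run 2. Gsdme, a gasdermin, was at 36.8 and 191, with 118 in run 1 and 198 in run 2.

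Several differences moved with glial RNA or with the run. Of the P0 Agrp cells' other-cell markers, oligodendrocyte genes summed to 74.1 CPM (Olig1, Cspg4, Sox10 and Mog at 0) and astrocyte genes to 110, against 171 and 310 at P7. Among the leading genes, Olig1 gave 0 UMIs at P0 and was at least 7.25-fold higher at P7, Sparc was at 69.8 and 4.49 CPM, Slc6a11 at 91.8 and 8.98, and Apoe at 655 and 89.8. Without the 25 cells with glial UMIs, Olig1, Sparc, Slc6a11 and Apoe were at 29.8, 34.5, 40.9 and 313 CPM at P7, while Thy1 was 137 and Tuba4a 132. Xist was at 0.268 CPM at P7 and 624 at P0, with 0 UMIs in run 1. Other neurons had 0.106 CPM of Xist at P7, 0.288 in P0 run 1 and 485 in P0 run 2, so this gene separated runs and not only ages. Xist is transcribed from the inactive X chromosome of female cells. The P7 cells and those of P0 run 1 were alike in having little of it, while most P0 Agrp cells came from run 2. CT010467.1, a ribosomal RNA gene, was at 6.98 and 123, with 0 UMIs in run 1 and 136 CPM in run 2. Of 17 neuropeptides 7 were higher at P7 and 1 lower, beside 14 of 20 higher in other neurons. Ghrh, Avp and Oxt, no higher in CPM in the P7 Agrp neurons than in the oligodendrocyte-gene cells, were among the 7. The parts of age, run, glial RNA and free RNA in these differences were not tested beyond these values.

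**Figure D5:**
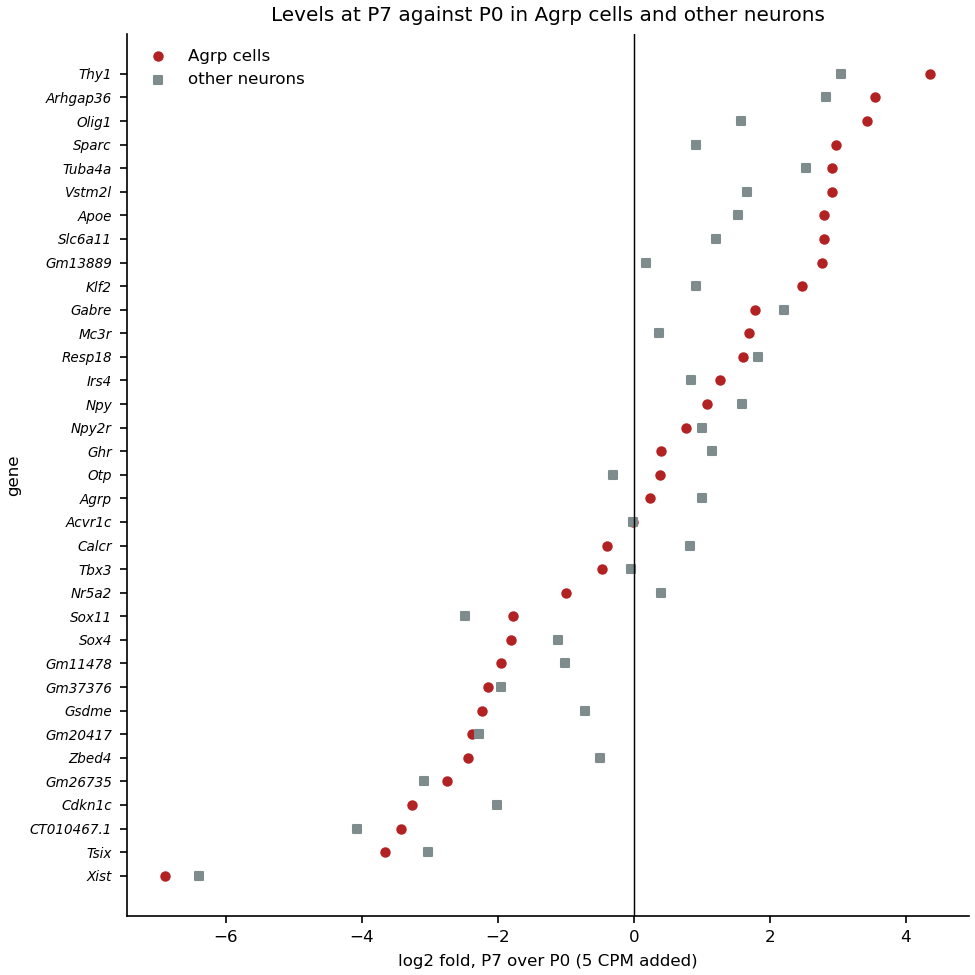
Log2 difference from P0 to P7 (5 CPM added) for 35 genes in Agrp cells and in other neurons. Irs4 stands at 1.26 in Agrp cells and 0.84 in other neurons, and Sox11 at -1.78 and -2.49.

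The genes lie as follows in the mouse genome build GRCm38 by the GENCODE M21 annotation, with 28368 of the 28879 names in the counts found there. Agrp is on chromosome 8 from 105566698 to 105637393, on the minus strand, where its gene model overlaps Gm45855 and Gm5914 on the same strand and Ctcf and Ripor1 on the other. Npy is on chromosome 6 from 49822710 to 49829507 and Otp on chromosome 13 from 94875602 to 94885130, both on the plus strand. Cited1 is on chromosome X from 102247381 to 102252181 and Irs4 on X from 141710998 to 141725263, both on the minus strand. Npy2r is on chromosome 3 from 82538383 to 82548084, Ghr on 15 from 3317760 to 3583492 and Acvr1c on 2 from 58267453 to 58357895, all on the minus strand. CT010467.1 on chromosome 17 overlaps Gm42418 and AY036118, and whether counting used strand is not given in the sources used here.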

How the data were processed

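The authors deposited 1 table of raw UMI counts per gene and cell for the whole series. Per the submitters' processing notes, Cell Ranger 3.0.2, Seurat and the genome build mm10 were used; neither the annotation nor a cell filter is given in the sources used here. Cells took their age and run from the start of their names. Total UMIs per age ran from 80085701 to 163088747, with medians of 8444.5 to 14781 per cell. The members and gene lists were chosen with earlier results of these data known.

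Counts were summed per group of cells and scaled to CPM, with 5 CPM added for log2 differences. The text names Agrp, Npy and Otp, the listed genes, the 15 highest and 15 lowest genes against other neurons and 10 each against the other groups (a UMI in at least 25% of cells of either group), and the 15 genes with the highest variance over mean among members at 2000 UMIs. The counts of 2-fold genes over all genes, the folds of named genes past 2-fold and the share of neurons were tried under other settings. These were other pseudocounts, filters, scalings, Agrp minimums and comparison cells, and doublets left out, each where it applied. Counts and medians of the gene lists were not recomputed under them. A few listed genes are not reported here by name. The summing and calling steps were tested on simulated data. Python 3.11.15, numpy 2.4.6, scipy 1.17.1, pandas 2.3.3, Scanpy 1.11.5 with Scrublet, and matplotlib 3.10.9 were used.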

Additional observations from a re-analysis of the deposited data

How the results depend on the processing

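No paired analysis was possible because each age is 1 sample and no test was run, and no replicate could be left out. The pseudocount moved counts of 2-fold genes in all comparisons: against other neurons 351 higher and 740 lower with 1 CPM, and 86 higher and 196 lower with 20 CPM; against other GABA neurons 336 and 616, then 76 and 144; against Pomc neurons 538 and 558, then 93 and 108; against P0 Agrp cells 1422 and 862, then 147 and 44. With genes in at least 25% of cells, the lower counts were 321, 251 and, against P0, 255. With comparison cells taken by Stmn2 and Agrp alone, 4200 with glia-rich cells among them, 1050 genes were lower. The higher share of calls was then 17.7% in place of 29.3%. Without the panel condition the share of neurons was 3.05%. Of 438 pairs of gene and comparison past 2-fold, 5 of 5007 values changed sign. Other pseudocounts and gene filters cannot change a sign, so the 5007 include values that could not reverse. The 5 were Atf3 against P7 cells by Stmn2 and Agrp alone at -0.25, and 2 genes against Pomc neurons. Gfap was there at 0.62 without doublets and 0.82 without cells of glial RNA, and Nts at 0.74 and 0.81. Of the 438 pairs 294 stayed past 2-fold with 20 CPM added, 413 without cells of glial RNA and at least 432 under the other settings run on all pairs. Among those others, 1 CPM and the gene filters could not lower the count. With comparison cells by Stmn2 and Agrp alone, 122 of 139 stayed, with other neurons of at least 10 Stmn2 UMIs 138 of 139, and with P0 run 2 only 86 of 92. Leaving out cells of glial RNA, or members without the panel condition, was added after seeing the data. No count of 2-fold genes was made against P0 run 1 alone, which has 6 cells. Depth limits genes such as Lepr (18 UMIs).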

Other observations

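Imprinted genes, which are expressed from 1 parental copy and are common in the hypothalamus, stood in both directions in Agrp neurons. Of 29 compared with other P7 neurons, 6 were at least 2-fold higher and 4 lower, with a median log2 difference of 0.03. Dlk1, a Notch ligand relative, was at 1084 CPM against 288, Asb4 at 392 against 180, Peg10 at 279 against 100, Grb10, an adaptor that damps insulin receptor signalling, at 136 against 42.8, Plagl1 at 123 against 41.0 and Rtl1 at 28.4 against 7.28. Nnat, neuronatin, was at 1004 against 4834, a log2 difference of -2.26, and Cdkn1c at 14 against 51.0. Against Pomc neurons 4 of 29 were higher, Dlk1, Magel2, Peg10 and Kcnk9, and 2 lower, Nnat and Ddc. Asb4, Grb10, Plagl1 and Rtl1 were thus not 2-fold higher than in Pomc neurons. Against other GABA neurons 5 of 29 were higher, without Asb4, and 4 lower. Against P0 Agrp cells 5 of 29 were higher and 2 lower, Cdkn1c, by its P0 UMIs of run 2, and Zim1. Among the 5 was Kcnk9, which gave 0 UMIs at P0 and is at least 1.20-fold higher, so that 2-fold is not shown for it.

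Of 34 genes of neuronal maturation and axon growth, 16 were lower in Agrp neurons than in other P7 neurons and 2 higher, with a median of -0.93. The lower ones held genes of young neurons, such as Sox4, and of mature ones, such as Syt1. Sox4 was at 76.0 CPM against 640, Epha5 at 20.4 against 150, Syt1, the calcium sensor of vesicle release, at 112 against 348 and Stmn2, a gene of the rule, at 1310 against 2750. The higher ones were Dlk1 and Unc5d, a netrin receptor, at 317 against 73.2. Syt1, Tubb3 and Stmn2, all lower here, belong to the neuronal panel that helped choose the other neurons, a condition not set on the Agrp neurons. Against Pomc neurons, chosen without the panel, 3 of 33 genes were higher in Agrp neurons, Syt1, Dlk1 and Unc5d, and 5 lower, Stmn2 among them.

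Peptide processing genes were higher for 3 of 18 against other neurons: Resp18 at 2941 CPM against 1034, Ptprn at 473 against 221 and Pcsk1, the first prohormone convertase, at 47.2 against 19. Cadps2 was lower, at 11.8 against 41.4.

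Immediate early genes, which neuronal activity and dissociation both switch on, were higher for 6 of 14 and lower for none. Fos was at 967 CPM against 433 and Egr1 at 192 against 59.0, while oligodendrocyte-gene cells of the same sample had 623 and 427. Of the 6 calls 4 ended against P7 cells taken by Stmn2 and Agrp counts alone, glia-rich cells included. The log2 differences were then 0.47 for Fos, 0.06 for Egr1, 0.21 for Junb and -0.25 for Atf3, and 1.09 for Fosb and 1.18 for Jun. Against other neurons with at least 10 Stmn2 UMIs all 6 stayed past 2-fold. With 20 CPM added, Junb was at 0.92 and Atf3 at 0.62, both short of 2-fold, and the other genes of the 6 stayed past it. Without cells of glial RNA, Junb was at 0.90. Of Atf3, at 19.9 against 5.93, 5 cells held 55.4% of the UMIs. The part of dissociation in these levels was not tested.

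At 2000 UMIs per cell, the most variable genes among Agrp neurons by variance over mean were Fabp7 at 11.46, Apoe at 9.64, Npy at 7.07, Malat1 at 6.18, Slc1a3 at 6.04, Ptprz1 at 5.52 and Meg3 at 4.36, with Agrp at 3.85 and Fos at 3.64. Of Fabp7, a gene of glia and progenitors, 5 cells held 44.6% of the UMIs.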
